A study of Mus musculus with 8 samples.

Results

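Processed pseudogenes are gene copies without introns, and 514 of them were measured by reduced representation bisulfite sequencing (RRBS) in mouse mammary tumors treated with the ERRα inhibitor C29, the DNA methyltransferase inhibitor 5-azadC (decitabine), both, or vehicle. A member is an autosomal gene of type processed_pseudogene in GENCODE M21 whose body holds 2 or more cytosines covered by 10 or more reads in all 8 libraries and lies more than 2000 bp from every protein-coding transcript start. Of 8924 annotated autosomal processed pseudogenes, 688 had at least 1 such cytosine, 532 had 2 or more, and 18 of these lay within 2000 bp of a coding start, which left 514 members. They were 5.76% of the annotated ones and 2.54% of the 20208 autosomal gene bodies of any type with 2 or more such cytosines. Neither the rule nor the filter used a methylation level.

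NIC-5231 cells, a line derived from ErbB2-driven mouse mammary tumors, were grafted into mammary fat pads of NSG mice aged 5 to 7 weeks, which lack most of their own lymphocytes. Once tumors could be felt, 5 mice per group received intraperitoneal injections every 2 days of vehicle (labelled DMSO), C29 (dose 10 mg/kg), 5-azadC (dose 1 mg/kg), or C29+5-azadC with each drug at its single dose. All drugs were given in saline with PEG and DMSO. Each group has 2 libraries, and each library is the pooled tumor DNA of 2 mice, so the spread between libraries is that of pools of 1 grafted cell line and may be partly technical. Host cells of the tumor are also mouse cells, so their DNA cannot be told apart from that of the line, and no RNA was measured that could check the cell types.

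A processed pseudogene arises when a messenger RNA is copied into DNA and inserted at another place in the genome, usually without the promoter of its parent gene and therefore mostly silent. Genes with abundant messenger RNA in germ cells, such as those of ribosomal proteins, have given rise to many such copies. In mammalian cells, cytosines followed by guanine (CpGs) in such insertions are usually methylated, and methylated cytosine tends to mutate to thymine, so that old copies lose CpGs. 5-azadC is built into replicating DNA and traps DNMT1, the enzyme that copies methylation to the new strand.

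The sequences below carry the main observations. In each, the capital CG marks a CpG counted on at least 1 strand at 10 or more reads in all 8 libraries, and letters are 5′ to 3′ on the strand of the pseudogene (NCBI RefSeq copy of GRCm38, the build also called mm10). The first 5 come from members whose 4 libraries with 5-azadC all lay below the 4 without it: Uqcrh-ps2 (chr2:119008239-119008268, plus strand), Gm28266 (chr9:98925285-98925469, minus strand), Gm4374 (chr6:73528856-73528965, minus strand), Gm11220 (chr4:66725074-66725223, minus strand) and Gm12486 (chr3:101207188-101207380, minus strand). Gm30652 (chr5:5567510-5567689, plus strand) is a ribosomal protein copy dense in counted CpGs. Gm4875 (chr6:117997217-117997259, plus strand) and Gm6659 (chr17:36158103-36158159, plus strand) are shown for their values with C29.
Uqcrh-ps2: actggatcCGgagaccccaaCGaggaagaa
Gm28266: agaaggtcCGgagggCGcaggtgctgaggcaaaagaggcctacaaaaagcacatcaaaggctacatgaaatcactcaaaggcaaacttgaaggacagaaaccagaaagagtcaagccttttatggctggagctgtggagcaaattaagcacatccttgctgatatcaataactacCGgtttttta
Gm4374: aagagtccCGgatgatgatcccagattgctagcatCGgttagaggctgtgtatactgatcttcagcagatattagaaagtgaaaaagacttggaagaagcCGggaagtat
Gm11220: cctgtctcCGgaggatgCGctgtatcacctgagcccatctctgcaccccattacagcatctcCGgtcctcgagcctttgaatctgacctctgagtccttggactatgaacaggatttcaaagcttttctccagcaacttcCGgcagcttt
Gm12486: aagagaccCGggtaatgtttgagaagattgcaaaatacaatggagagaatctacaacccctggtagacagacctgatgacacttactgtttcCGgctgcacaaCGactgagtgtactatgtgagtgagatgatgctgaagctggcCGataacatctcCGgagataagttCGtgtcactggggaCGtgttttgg
Gm30652: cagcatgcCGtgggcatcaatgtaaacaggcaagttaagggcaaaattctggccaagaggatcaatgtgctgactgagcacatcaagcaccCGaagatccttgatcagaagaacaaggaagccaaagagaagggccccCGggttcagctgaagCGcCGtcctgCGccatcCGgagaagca
Gm4875: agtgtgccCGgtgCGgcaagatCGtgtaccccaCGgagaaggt
Gm6659: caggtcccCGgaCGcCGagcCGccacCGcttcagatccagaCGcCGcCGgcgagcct

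RRBS libraries are made from DNA cut at ccgg, the site of MspI, which is its own reverse complement and thus the same on both strands. The letters ccgg were present in 512 of the 514 member bodies (99.6%) and in 3616 of the 8410 other annotated processed pseudogenes (43.0%). Over all 8924 the share was 46.3%. At least 2 such sites were found in 457 members (88.9%) and in 17.2% of the others. Members were also richer in CpGs, with 2.26 per 100 bases against 1.36 in the others. Of the 1918 CpGs counted in members, 781 (40.7%) lay inside a ccgg. The members thus stand for the CpG-rich processed pseudogenes that this assay can reach, and not for all of them.

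Within members, 2110 cytosines were counted, each strand of a CpG separately, with a median of 3 and at most 24 per member. A member's level in a library is the percentage of methylated reads among all reads over its counted cytosines. Cytosines with more reads thus weigh more, and no equally weighted level is given for single members. The reads behind that level, summed over cytosines, ranged from 20 to 6262 per member and library. Sums of 100 or more in every library were found in 202 members. A read that spans several counted cytosines enters the sum once for each. These sums and those given below can thus exceed the number of reads. Over whole libraries, reads at the listed cytosines totalled 51359825 to 81299065 and the median cytosine had 21 to 30 reads, with fewest in C29+5-azadC replicate 2. Unmethylated spike-in DNA read as 0.216% to 0.329% methylated and methylated spike-in DNA as 97.5% to 98.3%. The median member was 742 bases long and 36778 bp from the nearest coding start. Outside other genes lay 335 members (65.2%), 138 (26.8%) lay within or across an intron of another gene, and 41 overlapped an exon of another gene (7.98%). In 4 members the counted cytosines were the strands of a single CpG, and 4 members overlapped another member. Not all members are named.

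Members just inside and pseudogenes just outside the distance limit show what the limit separates. Gm16580, a copy of Pabpc1, lay 2062 bp from the start of Luc7l, with group means of 77.2% (vehicle), 78.2% (C29), 67.1% (5-azadC) and 72.4% (C29+5-azadC). Gm9353, at 2126 bp, read 100% with vehicle and 46.9% with 5-azadC over 2 cytosines. Gm13384, left out at 1997 bp, read 100% with vehicle and with 5-azadC over 3 cytosines. Wsb2-ps, left out at 1820 bp, went from 85.1% to 78.8% over 12 cytosines. The 198 members with exactly 2 counted cytosines had a mean vehicle level of 73.7%, and the 316 with 3 or more had 80.2%.

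With vehicle the processed pseudogenes were highly methylated. The mean over members was 77.6% and 77.9% in the vehicle libraries, 77.8% and 77.0% with C29, 69.9% and 71.1% with 5-azadC, and 71.7% and 71.6% with C29+5-azadC. All 4 libraries with 5-azadC lay below all 4 without it, while the C29 libraries lay on both sides of vehicle replicate 1. As group means ± SD (n = 2 libraries) these were 77.7% ± 0.242 for vehicle, 77.4% ± 0.537 for C29 alone, 70.5% ± 0.835 for 5-azadC alone and 71.7% ± 0.0443 for C29+5-azadC. Relative to vehicle the differences were -0.331, -7.24 and -6.06 percentage points. No p is given for a mean over members.

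**Figure D1:**
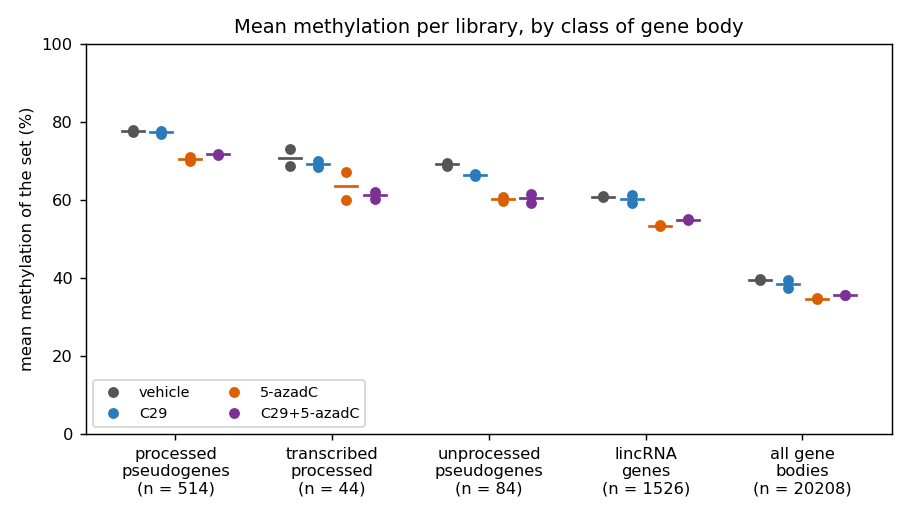
Mean percent methylation (vertical axis) of processed pseudogenes and of other sets of gene bodies in each of the 8 libraries, with 1 point per library and a bar at the mean of each group of 2. Processed pseudogenes lie between 77.0% and 77.9% in the 4 libraries without 5-azadC and between 69.9% and 71.7% in the 4 with it.

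All 20208 gene bodies tested had a mean vehicle level of 39.5% and changed by -1.04, -4.86 and -3.81 points with C29, 5-azadC and C29+5-azadC. Other genes far from coding starts had levels between these. The 84 unprocessed pseudogenes, which arise by duplication of DNA, had a vehicle mean of 69.1% and differences of -2.78, -8.89 and -8.70 points. The 1526 lincRNA genes had 60.8% and -0.48, -7.38 and -5.82 points. The 44 transcribed processed pseudogenes, annotated as such because RNA is known from them, had 70.8% and -1.59, -7.22 and -9.63 points. These comparisons share the vehicle libraries, and the values are given side by side.

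The 5-azadC libraries were lower across the upper range of levels. Members at 100% numbered 107 and 126 with vehicle, 109 and 109 with C29, 53 and 57 with 5-azadC, and 69 and 85 with C29+5-azadC. Members at 80% or more numbered 306 and 302 with vehicle, 300 and 292 with C29, 211 and 220 with 5-azadC, and 234 and 232 with C29+5-azadC. Both counts were lower in every library with 5-azadC than in any without it. At the other end, members below 20% numbered 15 to 21 in the libraries without 5-azadC and 19 to 27 in those with it, and these ranges overlapped.

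**Figure D2:**
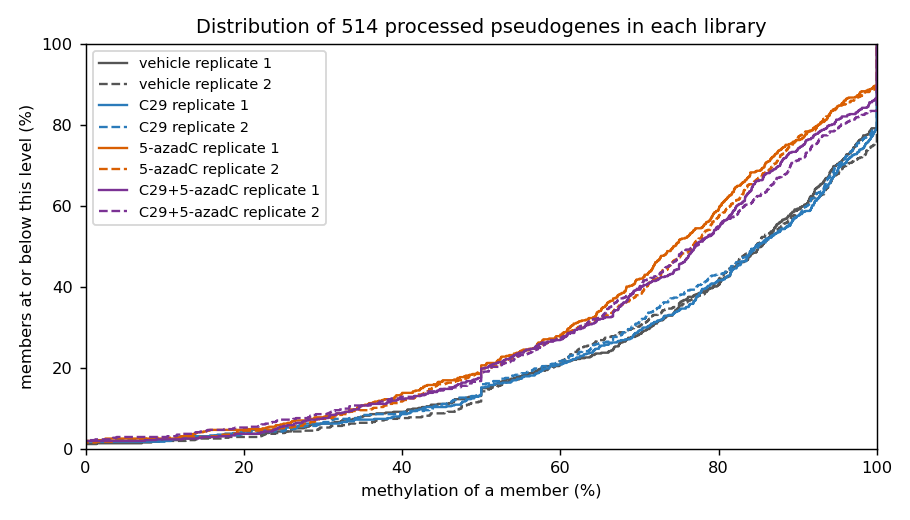
Cumulative distribution of percent methylation over the 514 processed pseudogenes, with 1 line per library, the level on the horizontal axis and the percentage of members at or below it on the vertical axis. From about the middle of the scale upward, the lines of the 4 libraries with 5-azadC run above those of the 4 without it, which hold more members at 100% (107 to 126 against 53 to 85).

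By member, 253 of 514 (49.2%) were lower with C29 than with vehicle, 374 (72.8%) were lower with 5-azadC and 354 (68.9%) with C29+5-azadC. The shares over all gene bodies were 53.7%, 69.4% and 64.5%. The median differences of members were 0, -6.38 and -4.92 points. Comparing the 4 libraries with 5-azadC against the 4 without, 388 members were lower and 120 higher, with means of 71.1% and 77.6%. The same comparison for C29 gave 247 lower and 261 higher, and the means were 74.5% with and 74.1% without C29.

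The change was also read against the vehicle level. In the mean of the vehicle libraries, 300 members (58.4%) were at 80% or more, against 15.5% of all gene bodies, 201 (39.1%) lay between 20% and 80%, and 13 (2.53%) were below 20%. With 5-azadC these classes differed from vehicle by -9.81, -3.95 and 1.19 points. The vehicle libraries enter both the class and the difference, so the class was also set by 1 vehicle library and the difference taken from the other, which gave -7.63, -6.81 and -5.2 points. With C29+5-azadC the same reading moved from -8.88, -2.68 and 6.70 to -6.63, -5.62 and -0.61 points, and with C29 from -3.26, 3.66 and 5.55 to -0.789, 0.631 and -2.65 points. Read in this way, the classes differed much less in their change with 5-azadC.

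To ask which single members differed from vehicle, reads were compared with a logistic model of the kind run by methylKit, with calls at an adjusted p (q) below 0.01 and a difference of 25 points or more. With C29, 23 members were called lower, where 1.12% of all gene bodies were, and 16 higher, where 0.96% were. 5-azadC gave 42 lower (3.09% of all gene bodies) and 4 higher (0.381%). C29+5-azadC gave 38 lower (2.88%) and 10 higher (0.559%). As shares of the 514 members the lower calls were 4.47%, 8.17% and 7.39%, above the share of all gene bodies each time. Unprocessed pseudogenes gave 3.57%, 8.33% and 8.33% and lincRNA genes 2.23%, 6.68% and 6.75%. These shares are not matched for read depth: of the 202 members with 100 or more reads in every library, 6, 8 and 8 were called lower. That cut was chosen after seeing the data. The shares are also not matched for vehicle level: 36.5% of all gene bodies but 2.53% of members were below 20%, with little room to fall 25 points. At a vehicle level of 80% or more, 5-azadC changed all gene bodies by -12.1 points and members by -9.81. With class and difference from separate vehicle libraries, these were -9.56 and -7.63 points. Of the called members, 27 (C29), 35 (5-azadC) and 35 (C29+5-azadC) had both treated libraries on one side of both vehicle libraries, where all gene bodies gave 1.65%, 3.01% and 2.82%. In all, 102 members were called in at least 1 comparison (19.8%, where 7.11% of all gene bodies were) and 412 in none. Of the 102, 5 members were called in all 3 comparisons (background 0.292%), which share the vehicle libraries.

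The logistic model takes reads as independent and does not measure the spread between libraries. Its calls have to be read beside that spread, which within a group had a median SD of 9.83 points for members and 5.47 for all gene bodies. Within a library, 192 member CpGs were counted on both strands. Their strands differed by a median of 12.0 points, by more than 25 points in 462 of 1536 comparisons (30.1%), and by 0% against 100% in 22. The variance of this difference was 14.6 times that expected from counting. Over 72920 autosomal CpGs the ratio was 14.9, with 14.4% of comparisons above 25 points. In RRBS without molecular identifiers, reads need not be independent molecules. The cause of the excess over counting was not tested. The q-values of the logistic model cover counting error only.

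limma was therefore run over all 8 libraries, on the log2 ratio of methylated to unmethylated reads. At an adjusted p below 0.05 no member and no gene body passed for 5-azadC, for C29 or for the difference between the combination and the sum of both drugs, by limma or by edgeR. The lowest limma q of a member was 0.279, 0.761 and 0.6. At an unadjusted p below 0.05, limma counted 71 members for 5-azadC, 37 for C29 and 38 for the combination minus the sum of both drugs. edgeR counted 43 (8.37% of members, background 7.89%), 8 (1.56%, background 3.41%) and 16 (3.11%, background 3.77%). For 5-azadC, 66 of the 71 were lower (12.8% of members, where 9.53% of all gene bodies were lower) and 5 were higher (background 1.11%). For C29, 14 were lower (background 2.53%) and 23 higher (background 2.54%). For the combination minus the sum of both drugs the 38 were 7.39% (background 5.23%). All 4 libraries with 5-azadC lay below all 4 without it in 30 members (background 6.51%) and above in 1 (background 0.327%). For C29 these numbers were 5 (background 1.1%) and 8 (background 1.01%). A member's count near its background is not particular to processed pseudogenes.

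Members with wide differences by 5-azadC are described next, with the role of the parent gene. The effect is the mean of the 4 libraries with 5-azadC minus the mean of the 4 without, with its SE from the spread within groups, and its q comes from limma on the log2 scale. Uqcrh-ps2 (ENSMUSG00000081413.3, chr2:119008209-119008477, outside other genes) matched at 94.8% identity to Uqcrh, the hinge subunit of respiratory complex III. It read 92.4% and 88.0% with vehicle, 92.7% and 97.5% with C29, 80.1% and 79.0% with 5-azadC, and 56.2% and 66.4% with C29+5-azadC. Each of its 2 cytosines had 50 to 179 reads per library, or 100 to 358 when summed. The combination was lowest, 5-azadC alone lay between, and the libraries without 5-azadC did not overlap either. The effect was -22.2 ± 3.03 points, or -2.45 ± 0.49 on the log2 scale of the limma fit (q = 0.354). The logistic model called the combination (-30.3 points, q = 3.8e-17) and not 5-azadC alone (-11.1 points).

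Gm28266 (ENSMUSG00000101240.1, chr9:98925174-98925612, outside other genes) is a copy of Tpt1, which encodes a translationally controlled tumor protein. Its levels were 74.8% and 85.4% with vehicle, 71.8% and 77.2% with C29, 52.5% and 48.1% with 5-azadC, and 56.8% and 60.8% with C29+5-azadC. In these levels, which are weighted by reads, the 4 libraries with the drug did not overlap the other 4, and 5-azadC alone was lowest. The effect was -22.7 ± 3.33 points (limma q = 0.358), or -37.6 points with cytosines of 20 or more reads only, and the logistic difference for 5-azadC was -30.4 points (q = 8e-13). Of its 4 cytosines, 3 were lower and 1 was higher in the libraries with 5-azadC. The cytosine at position 98925454 read 100% in both vehicle libraries, 76.6% and 100% with C29, 18.5% and 0% with 5-azadC, and 22.6% and 76.7% with C29+5-azadC. In C29 replicate 2, the CpG whose cytosines are at 98925460 and 98925461 read 0% on the plus strand and 100% on the minus strand. The cytosine at 98925293 also read 0% in that library. Its 4 cytosines thus read 0% or 100%, and its level of 77.2% depends on the reads behind each.

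Gm20945 (chr8:20869506-20870650) matched Kin, which encodes a DNA- and RNA-binding protein. It read 84.0% and 79.2% with vehicle, 78.9% and 63.6% with C29, 65.3% and 43.4% with 5-azadC, and 33.6% and 38.6% with C29+5-azadC. The combination stood apart below the rest, and 5-azadC overlapped C29. The logistic difference for the combination was -45.6 points (q = 1.3e-52), and limma gave q = 0.354 for the 5-azadC effect. Gm4374 (chr6:73528815-73529238), a copy of the tubulin folding cofactor gene Tbca, was intermediate in level, with 51.2% and 54.2% with vehicle, 49.1% and 64.2% with C29, 35.9% and 39.5% with 5-azadC, and 34.6% and 30.8% with C29+5-azadC. Its effect was -19.5 ± 4.06 points (limma q = 0.389). Of its 3 cytosines, 2 were lower and 1 was higher, from -31.5 to 0.258 points. Their vehicle means ran from 4.43% to 99.7%, so the level and its separation depend on how reads were shared among them.

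Gm11220 (chr4:66725070-66725544), a copy of the immediate early response gene Ier3, read 100% and 93.9% with vehicle, 99.7% and 100% with C29, 85.8% and 87.8% with 5-azadC, and 79.7% and 68.3% with C29+5-azadC. All 6 of its cytosines were lower in the libraries with 5-azadC, by 4.07 to 32.2 points, and the effect of the whole body was -18.02 ± 3.27 points (limma q = 0.389). Gm12486 (chr3:101206859-101207399), a copy of the ribosome biogenesis gene Nip7, read 88.1% and 82.6% with vehicle, 89.3% and 85.2% with C29, 68.3% and 80.02% with 5-azadC, and 65.6% and 65.5% with C29+5-azadC. Of its 10 cytosines, 8 were lower and 1 higher, and the effect was -16.4 ± 3.39 points (limma q = 0.395). In both members both libraries of the combination lay below both of 5-azadC alone, and neither passed the limma threshold.

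**Figure D3:**
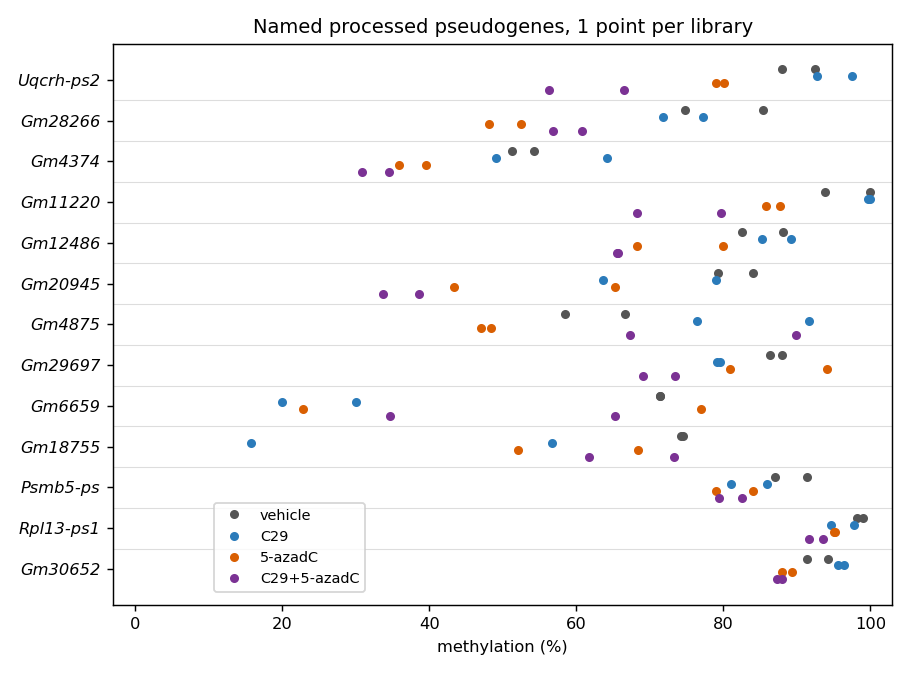
Percent methylation (horizontal axis) of named processed pseudogenes in each of the 8 libraries, with 1 point per library coloured by treatment. In Uqcrh-ps2 the 4 libraries with 5-azadC lie between 56.2% and 80.1% and the 4 without it between 88.0% and 97.5%.

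**Figure D4:**
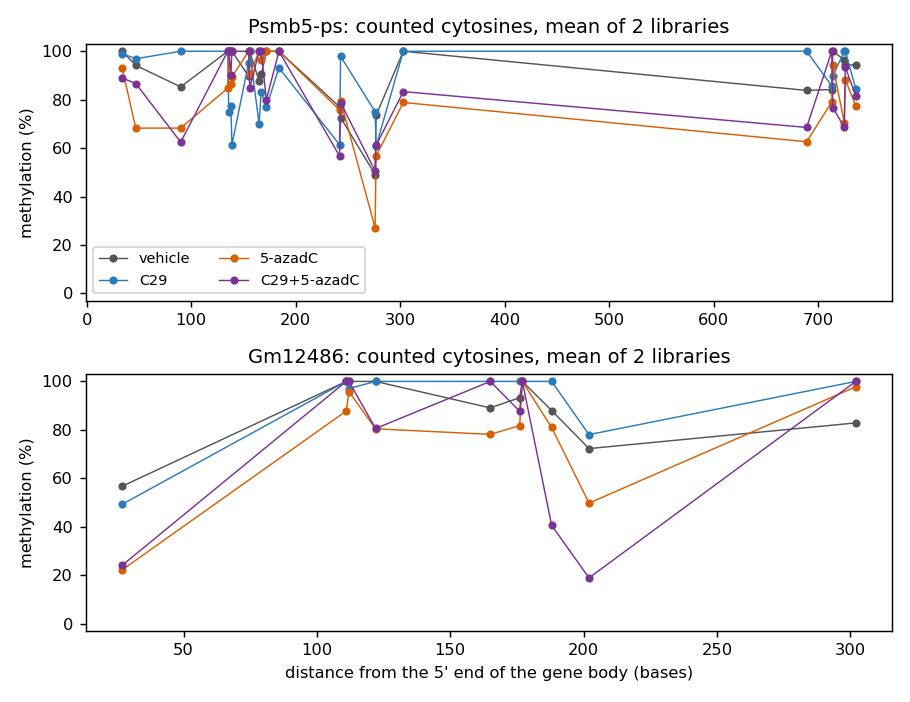
Percent methylation of each counted cytosine along Psmb5-ps (24 cytosines) and Gm12486 (10 cytosines), by distance in bases from the 5′ end of the body, with points for the mean of 2 libraries and lines that only join the points of a group. Neighbouring cytosines differ in level and in change: at 27 bases in Gm12486 the means are 56.7% with vehicle and 22.2% with 5-azadC, and at 177 bases all 4 are 100%.

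With C29, the separations were fewer. Gm4875 (chr6:117997207-117997992), a copy of the actin-binding protein gene Lasp1, was higher in all 4 libraries with C29, at 76.4% and 91.7% with C29 and 89.9% and 67.3% with C29+5-azadC. Without C29 it read 66.7% and 58.4% with vehicle and 47.0% and 48.4% with 5-azadC. The C29 effect was 26.2 ± 7.13 points (limma q = 0.904). Gm29697 (chr15:38573996-38577707), a copy of the ubiquitin ligase gene Siah1a that overlaps an exon of another gene, was lower in all 4 libraries with C29. It read 79.6% and 79.1% with C29, 69.1% and 73.4% with C29+5-azadC, 87.9% and 86.4% with vehicle, and 94.1% and 80.9% with 5-azadC. Its C29 effect was -12.0 ± 3.503 points (limma q = 0.947). The separation of Gm29697 was seen in levels weighted by reads.

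The members with the greatest logistic decreases with C29 varied widely between libraries. Gm6659 (chr17:36157988-36158534), a copy of Akirin1 within an intron of another gene, read 71.3% and 71.4% with vehicle, 20% and 30% with C29, 22.8% and 77.0% with 5-azadC, and 34.6% and 65.3% with C29+5-azadC. Its logistic difference for C29 was -45.1 points (q = 6.8e-36), yet the libraries of the other groups spanned most of the range between these levels. All 8 of its counted cytosines lay on the minus strand with 15 to 74 reads each, so this q can count the same read several times. Gm18755 (chr10:130469511-130470609) read 74.5% and 74.3% with vehicle and 56.8% and 15.7% with C29, so that the C29 libraries differed from each other by more than either differed from 5-azadC replicate 1 (52.1%). Gm16425, a copy of Larp1, read 74.5% and 43.5% with vehicle and 41.2% and 11.5% with C29. The limma q of the C29 effect was 0.961 for each of these 3 members.

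Some members stood at the ends of the scale in every library. Gm29781 (chr6:109125685-109126162), a copy of the RNA-binding protein gene Ybx1, had no methylated read among 777 over 2 cytosines in the 8 libraries. A count of 0 allows a level of up to 0.386% over all libraries and up to 5.56% in the library with fewest reads (54). These limits cover counting error only and take each read at each cytosine as separate. Another 4 members read 100% in all 8 libraries. Gm12492 (chr4:43798896-43800255), a copy of the small GTPase gene Cdc42, is the member whose 4 libraries with 5-azadC all lay above the others and was named after its values were seen, as was Gm29781. It read 0% in the 4 libraries without 5-azadC, 12.1% and 16.8% with 5-azadC, and 18.4% and 13.9% with C29+5-azadC (limma q = 0.279). Among members with 4 or more cytosines, the histone H2A copy Hist1h2al, which matches Hist2h2aa2 at 99.4%, was also low, at 9.31% and 22.0% with vehicle, 0% and 13.5% with C29, 0.943% and 7.63% with 5-azadC, and 8.93% and 12.1% with C29+5-azadC.

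Members with many cytosines or reads gave the following values. Psmb5-ps, a copy of the gene of a catalytic proteasome subunit, had 24 cytosines and 968 to 1724 reads per library. It read 87.0% and 91.3% with vehicle, 81.0% and 86.0% with C29, 84.0% and 79.0% with 5-azadC, and 79.4% and 82.5% with C29+5-azadC. The libraries with and without 5-azadC overlapped, and 16 of the 24 cytosines were lower with the drug. Gm11400, a copy of the translation elongation factor gene Eef2 in an intron of Sfi1, had the most reads of any member, 3427 to 6262. It read 83.7% and 80.3% with vehicle and 82.1% and 77.9% with 5-azadC, an effect of -2.14 ± 1.87 points over all 8 libraries. That effect was -1.27 without vehicle replicate 1, -1.11 without C29 replicate 1, -1.08 without 5-azadC replicate 2, -1.38 without C29+5-azadC replicate 1 and -3.41 without the cytosines of highest coverage. Gm14143, a copy of the translation repressor gene Eif4ebp1 with 17 cytosines, read 96.0% and 93.6% with vehicle, 97.1% and 94.6% with C29, 77.8% and 87.8% with 5-azadC, and 94.0% and 87.3% with C29+5-azadC (effect -8.63 ± 3.11 points, limma q = 0.469). With cytosines of 20 or more reads only, its effect was -17.4 points.

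A protein-coding parent was found by sequence match for 512 members, with a median identity of 91.6% (65.1% to 100%) and 376 distinct parents. The alignment covered 80% or more of the body in 409 members. A total of 204 members shared their parent with at least 1 other member, and 193 had a stretch that matched elsewhere in the genome at 95% or more. Such copies can receive each other's reads. Members with such a match had a mean of 77.9% with vehicle and 70.9% with 5-azadC, and the 321 without had 77.6% and 70.2%.

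Of the 409 members aligned over 80% or more of the body, 56.9% of the parent's CpGs were still CpGs and 28.2% had become TpG or CpA, the products of mutated methylated cytosine on either strand. In the 133 most similar copies (identity of 95% or more) 80.4% were kept, in the 119 of 90% to 95% it was 58.4%, and in the 157 below 90% it was 36.3%. The TpG or CpA share was higher in the same order, at 14.4%, 28.2% and 39.5%. Each lost CpG also lowers the identity in the same alignment, so this order is in part fixed by how the classes were set. Methylation did not follow this order closely. The median vehicle levels of these classes were 86.0%, 85.9% and 84.1%, and the median 5-azadC effects were -5.26, -6.81 and -6.53 points. Over 512 members, Spearman's rho between identity and vehicle level was 0.0754, and between identity and the 5-azadC effect -0.0100. These are descriptions across members, which share libraries and sometimes a parent.

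**Figure D5:**
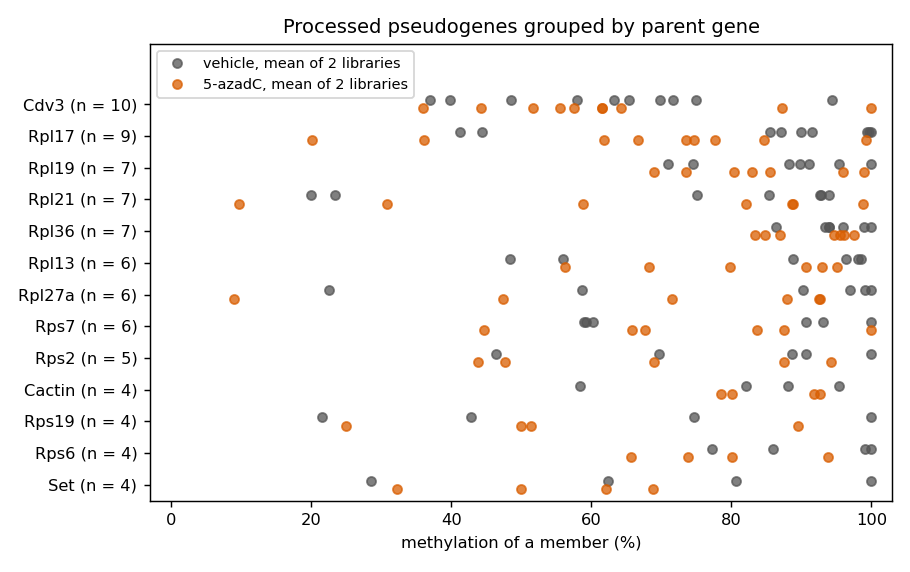
Percent methylation of members that share a parent gene (parents with 4 or more members), as the mean of both libraries with vehicle and with 5-azadC, with 1 pair of points per member. All 7 Rpl36 copies lie at 86.4% or more with vehicle, while the 10 Cdv3 copies range from 37.0% to 94.4%.

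Copies of cytosolic ribosomal protein genes were the largest family, with 111 members. Their median vehicle level was 90.7% and their median 5-azadC effect -6.53 points, with 85 of 111 below 0, beside 84.9%, -5.72 points and 388 of 514 for all members. Copies of one gene could differ widely. The 9 copies of Rpl17, on 9 chromosomes, ranged from 41.2% to 100% with vehicle and 8 were lower with 5-azadC (median -9.99 points). The 7 copies of Rpl36 lay within 86.4% to 100% and all 7 were lower (median -8.58 points). The 7 copies of Rpl21 ranged from 19.96% to 93.9%. All 5 copies of Rps2 and all 4 copies of Rps6 were lower with 5-azadC, and 3 of the 7 copies of Rpl19 were. Of the 4 copies of Rps19, only 1 was lower, and their median effect was 5.45 points. Copies of 1 parent share sequence and may share reads, so they are not independent replicates.

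Gm30652 (chr5:5567328-5567757), an Rpl21 copy with 14 counted cytosines and 687 to 1381 reads, showed a small difference with little spread between libraries of a group. It read 91.4% and 94.3% with vehicle, 95.5% and 96.5% with C29, 87.9% and 89.4% with 5-azadC, and 88.0% and 87.3% with C29+5-azadC. In these levels, weighted by reads, the libraries with and without 5-azadC did not overlap. Of the 14 cytosines, 12 were lower (single cytosines from -17.1 to 0.645 points), and the effect was -6.25 ± 0.862 points (limma q = 0.476). Single cytosines could spread more: position 5567602 read 41.7% and 82.4% with vehicle, and 100% and 0% with C29+5-azadC. Rpl13-ps1, with 16 cytosines and 13 close copies elsewhere, read 98.2% and 98.9% with vehicle, 97.8% and 94.6% with C29, 95.2% and 94.98% with 5-azadC, and 93.5% and 91.6% with C29+5-azadC. Its C29 replicate 2 lay below both 5-azadC libraries.

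Copies of oxidative phosphorylation genes and typical ERRα targets, a list chosen because C29 inhibits ERRα, numbered 12. Their mean level was 81.7% (vehicle), 85.6% (C29), 71.1% (5-azadC) and 71.4% (both drugs). Of the 12, 11 were lower with 5-azadC (median -10.9 points), where 388 of all 514 members were. At an unadjusted limma p below 0.05, 2 of the 12 were lower, Uqcrh-ps2 and Gm14215, where 12.8% of members and 9.53% of all gene bodies were, and none passed the adjusted threshold. Gm14215, a copy of the ATP synthase subunit gene Atp5k, read 74.7% and 92.8% with vehicle, 89.4% and 84.2% with C29, 82.4% and 54.7% with 5-azadC, and 64.6% and 51.0% with C29+5-azadC, with overlap between the groups (-22.1 ± 9.03 points, q = 0.435). Uqcrh-ps1, the other Uqcrh copy, read 80.8% and 80.7% with vehicle, 77.5% and 80.8% with C29, 74.3% and 73.6% with 5-azadC, and 80.2% and 71.4% with C29+5-azadC. It thus did not repeat the drop of Uqcrh-ps2 with the combination.

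Other families were smaller. The 12 copies of glycolysis genes had a median vehicle level of 89.3% and effect of -4.46 points, and the 9 copies of translation factor genes had 93.2% and -7.43 points. The 14 copies of chromatin protein genes had a lower median vehicle level, 65.8%, with an effect of -6.32 points. The 5 copies of ubiquitin and proteasome genes had 88.4% and -5.09 points, and the 5 of RNA binding protein genes 83.0% and -8.85 points. The 4 copies of cytoskeleton genes had 84.3% and -5.67 points. The 3 copies of chaperone genes had 67.2% and 2.03 points, with 1 of 3 below 0. The 339 members with a parent outside these lists had 83.1% and -5.26 points, with 255 below 0. The 10 copies of Cdv3, most of which have a close copy, had a median vehicle level of 64.3% and a median 5-azadC effect of -0.281 points, with 5 below 0.

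For 109 members, 2 or more cytosines were also counted in the DNA within 2000 bp of the body. In the order vehicle, C29, 5-azadC and both drugs, the body averaged 79.5%, 77.9%, 71.4% and 74.0%, and the flank 74.4%, 72.9%, 66.8% and 70.4%. The differences from vehicle were -1.58, -8.07 and -5.45 points in the body and -1.42, -7.60 and -4.02 points in the flank. With vehicle the body was above its flank in 63 members and below it in 40. Across these 109 members the body and flank levels with vehicle had a Spearman's rho of 0.388 and a Pearson's r of 0.502, in libraries that both share. Members within or across an intron of another gene had a mean of 82.2% with vehicle and 74.7% with 5-azadC, and those outside other genes 75.9% and 69.1%.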

How the data were processed

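RRBS was measured in 8 libraries, 2 per group, each from a pool of DNA (2 mice). The sample titles gave the groups. Per the labels, the authors' processing names FastQC 0.11.8, Trim Galore 0.4.1, Bismark 0.20.0 and methylKit 1.7.0 with mm10/GRCm38. The authors deposited, per CpG cytosine and strand, a count of reads and the fraction of them that was methylated, without normalization. The product of fraction and count was whole within 0.01 reads for nearly all cytosines and was rounded. No column of per-sample values was left out. Every one of the 555155 autosomal cytosines with 10 or more reads in all 8 libraries was checked to precede a G in the genome.

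Reads were summed over the counted cytosines of each of 20208 autosomal gene bodies (GENCODE M21). Each treatment was compared with vehicle by a logistic likelihood-ratio test (NumPy 2.4.6, SciPy 1.17.1). limma 3.58.1 (R 4.3.3) was run on log2((methylated + 1)/(unmethylated + 1)) with trend over all 8 libraries, and edgeR 4.0.16 as an alternative. All p-values were adjusted by Benjamini-Hochberg over all 20208 gene bodies. The logistic tests and the main limma fit were also run on simulated data, and edgeR was not. Parents were found with blastn 2.17.0 against annotated coding transcripts (best score, 100 bases or more).

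The members and lists were chosen with earlier results of these data known. Named members had 100 or more reads in every library, summed over their cytosines. They had the widest changes among called or separated members, the highest or lowest vehicle levels, or the most cytosines overall or in a family. Named outside this rule, after their values were seen, were Gm12492, Gm29781, Gm14215, Uqcrh-ps1 and the genes beside the distance limit. Replicate numbers were not taken to pair libraries, because nothing in the labels links them and their deviations correlated by -0.063 to 0.0217 over members. Alternatives covered read and cytosine minimums, strands, distance, tests and left-out libraries. The values of 1 member at the low end of the scale are not reported here.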

Additional observations from a re-analysis of the deposited data

Results flagged for a closer look

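Among the named members, values of 2 stood out because both libraries of a group moved one way under a drug while both libraries of another group moved the opposite way under the same drug. In Uqcrh-ps2, C29 against vehicle was 4.90 points higher and C29+5-azadC against 5-azadC was -18.2 points. The combination minus the sum of both single drug differences was -23.1 ± 6.06 points (limma on the log2 scale, q = 0.933), so the difference did not pass the adjusted threshold. In Gm18755, a match to the vomeronasal receptor gene Vmn2r86, 5-azadC against vehicle was -14.2 points and C29+5-azadC against C29 was 31.3 points. The same measure gave 45.4 ± 22.8 points (limma q = 0.933). C29 replicate 2 of Gm18755, at 15.7%, was the lowest of its 8 libraries and enters the second value. Over all gene bodies 5.23% had an unadjusted p below 0.05 for it. The search covered the named members only. Over all 514 members, 24 (4.67%) had such opposite moves under 5-azadC and 18 (3.502%) under C29. Over all 20208 gene bodies the shares were 4.24% and 5.14%. No technical or biological cause was tested.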

How the results depend on the processing

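The logistic counts (39, 46 and 48 members called with C29, 5-azadC and C29+5-azadC) depended on the settings, in that order of treatments. With the main settings they were 7.6%, 8.9% and 9.3% of 514 members. At 20 reads per cytosine, 12, 21 and 23 of 273 members were called (4.4%, 7.7% and 8.4%). At 3 or more cytosines, 16, 18 and 23 of 316 were called (5.1%, 5.7% and 7.3%). Fewer members thus account for part of the lower counts. Over all gene bodies the main shares were 2.1%, 3.5% and 3.4%. They were 1.8%, 3.3% and 3.4% at 20 reads, and 1.3%, 2.4% and 2.3% at 3 or more cytosines. At 10 points, 148, 229 and 200 members were called (28.8%, 44.6% and 38.9%), beside 16.9%, 25.3% and 23.4% of all gene bodies. An F test corrected for overdispersion gave 0, 0 and 0 calls, and it also made no calls in the check on simulated data. Leaving out 1 library gave 51 to 63, 60 to 86 and 59 to 85, with 63 without C29 replicate 1, 86 without 5-azadC replicate 2, and 75 and 85 without C29+5-azadC replicates 1 and 2. With the replicate number as a replicate block, 38, 45 and 47 were called, and limma with the block had 62 members lower for 5-azadC at an unadjusted p below 0.05 (66 without it). No member passed the adjusted threshold in any limma or edgeR alternative. The mean difference with C29 was -1.07 points at 3 or more cytosines, -0.911 without close copies, -0.872 with each cytosine weighted equally and -0.972 in members with 100 or more reads (chosen after seeing the data), and -0.71 to 0.0487 with 1 library left out. With 5-azadC it was -7.90 at 20 reads, -6.71 with each cytosine weighted equally, -6.10 in members with 100 or more reads, and -7.83 to -6.65 with 1 library left out. With C29+5-azadC it was -7.69 at 20 reads, -6.90 without close copies, and -6.23 to -5.89 with 1 library left out. By vehicle class (below 20%, 20% to 80%, 80% or more), the independent vehicle library gave -2.65, 0.631 and -0.789 points under C29, then -5.2, -6.81 and -7.63 under 5-azadC, then -0.61, -5.62 and -6.63 under both. The cause of these shifts was not tested. Of 40 members that the naming rule gives, 36 were rerun, and 30 of these kept the sign of their 5-azadC effect in all alternatives run. The others were Gm12892, Gm15495, Gm6190, a member whose effect was 0, Gm18755 (8.55 points, -1.70 without C29 replicate 2) and Gm6659 (1.75 points, -11.8 without 5-azadC replicate 2, -5.92 without C29+5-azadC replicate 2 and -0.751 without C29 replicate 1). At 20 reads, Psmb5-ps went from -5.09 to -10.8 points and Rpl13-ps1 from -3.58 to -8.86 points. The median member had 76 reads, summed over its cytosines, in its shallowest library.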
